A study of Homo sapiens with 8 samples.

Results

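The endoplasmic reticulum (ER) chaperone genes of the unfolded protein response were described in HepG2 and Hep3B, human liver cancer cell lines that the paper calls hepatocellular carcinoma (HCC) lines. The 10 genes HSPA5, HSP90B1, DNAJB9, HERPUD1, XBP1, SDF2L1, PDIA4, PDIA6, EDEM1 and CALR were taken by name, as well-known targets or parts of this response, out of 17253 genes with an assigned transcript in at least 1 library. The libraries were made after 48 h with NaB (sodium pentaborate pentahydrate, a boron salt), with Cur and Pip (curcumin, a polyphenol of turmeric, and piperine, an alkaloid of pepper), with NaB, Cur and Pip together (the combination treatment), or without treatment (control). NaB was given at 2500 µM to HepG2 and at 1700 µM to Hep3B, and Cur and Pip at 30 µM and 6 µM to both lines, alone and in the combination. The genotype of every library is labelled as wild type. Cur and Pip stocks were in dimethyl sulfoxide and NaB was dissolved in medium, and no vehicle is named for the controls, so the part of this solvent in the differences cannot be told apart from that of Cur and Pip. There was 1 library per condition, so every comparison within a line is between 2 libraries, has no replicate check and carries no p-value.

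Proteins that enter the ER are folded there by chaperones and by enzymes that form and rearrange disulfide bonds. When unfolded proteins accumulate, the membrane sensors IRE1, PERK and ATF6 are activated. IRE1 cuts a short segment out of the XBP1 mRNA, which shifts the reading frame so that an active transcription factor is made, while ATF6 is cleaved in the Golgi and PERK favours translation of ATF4. XBP1 and ATF6 then raise the genes of chaperones, of disulfide isomerases and of ER-associated degradation. Liver cells secrete large amounts of plasma protein and carry a high ER folding load.

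Levels are in FPKM (fragments per kilobase of transcript, scaled to the mapped fragments of the library), summed over the transcripts that Cufflinks assembled at a gene. The assembled transcripts of the 8 libraries stood for 25.6 to 35.7 M fragments, estimated from their depth and length and not counted from reads. Of the transcripts, 70.4 to 88.1% in each library were assigned to a gene. A gene with no assigned transcript in a library is called not listed there. Single-exon transcripts made up 19.1 to 34.1% of all transcripts in the treated libraries and 14.7 and 16.4% in the controls, and the part of this in the levels below was not tested. Of 15 hepatocyte marker genes, 12 to 15 were at 1 FPKM or more in each HepG2 library, and their summed level was 7011 to 15588 FPKM. In the libraries labelled Hep3B at most 1 of the 15 was, the summed level was 0.456 to 4.92 FPKM, and 8 to 14 of the markers were not listed. HNF4A, a defining transcription factor of hepatocytes, was at 25.3 to 89.0 FPKM in HepG2 and at no more than 0.566 FPKM in the libraries labelled Hep3B, which are called by their label for this reason. Summed fibroblast markers were at 86.0, 61.1 and 38.9 FPKM after NaB, after Cur with Pip and after the combination under the Hep3B label, and at 305 FPKM in its control, with at most 4 of 7 genes at 1 FPKM or more. Their part in the results was not tested.

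The segment that IRE1 removes from XBP1 is 26 nt long and lies in the coding sequence on the minus strand of chromosome 22. It is shown because the assembled transcripts of these libraries differ in whether they hold it. The sequence of GRCh38 at chr22:28796108-28796173 is given 5′ to 3′, with the segment in capitals where GENCODE places it. The spliced form is the same stretch without this segment.
XBP1 unspliced: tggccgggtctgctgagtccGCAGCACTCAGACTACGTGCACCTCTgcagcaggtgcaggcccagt
XBP1 spliced: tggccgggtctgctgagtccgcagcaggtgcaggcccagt
The gap in the assembled transcripts spans 28796122 to 28796147, and that of the GENCODE transcript of the spliced form 28796128 to 28796153. They lie 6 nt apart because the bases repeat there, and both give the same spliced sequence. Neither placement, and so neither edge of the capitals, shows the exact bases between which IRE1 cuts. The length of 26 nt leaves a remainder of 2 when divided by 3, which is the frame shift.

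The promoters were searched for the ER stress response element (ERSE, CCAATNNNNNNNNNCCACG), for ERSE-II (ATTGGNCCACG) and for the XBP1 core site TGACGTG, on both strands and from 250 bases before to 50 bases after each annotated start. ERSE was in a promoter of 5 of the 10 genes (HSPA5, HSP90B1, PDIA6, CALR and XBP1) and in 0.0769% of 35116 human promoters. ERSE-II was in those of HERPUD1 and SDF2L1 and in 0.0541% of all. The XBP1 core letters were in none of the 10 and in 1.97% of all. These elements were defined on promoters of such genes, so the matches describe the genes chosen, and a match is not a measured binding site. The windows below are from RefSeq on GRCh38.p14, read along the gene's own strand, with the outer parts of the element in capitals; no motif match overlaps another in them.
HSPA5, chr9:125241375-125241425, minus strand: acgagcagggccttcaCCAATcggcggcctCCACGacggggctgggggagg
HSP90B1, chr12:103930200-103930250, plus strand: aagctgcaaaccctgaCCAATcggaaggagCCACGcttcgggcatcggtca
XBP1, chr22:28800587-28800637, minus strand: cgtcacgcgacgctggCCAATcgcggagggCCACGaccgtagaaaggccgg
HERPUD1, chr16:56932009-56932051, plus strand: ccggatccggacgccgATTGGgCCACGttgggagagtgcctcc
HSP90B1 holds a further ERSE in reverse orientation closer to its start, so that it is the gene with 2 copies among these. Of the genes with ERSE, HSPA5 and HSP90B1 were highest of the 8 libraries under the Hep3B label after the combination, XBP1 and PDIA6 were highest in the HepG2 control, and CALR was not listed in 3 libraries. Both genes with ERSE-II, HERPUD1 and SDF2L1, were highest under the Hep3B label after the combination, and SDF2L1 was lowest in HepG2 after the combination. Of the genes with neither element, DNAJB9 was also highest under the Hep3B label after the combination. PDIA4 was highest in the HepG2 control and EDEM1 in HepG2 after the combination. A link between the elements and these levels was not tested.

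HSPA5 (chromosome 9, 125234853 to 125241382) encodes BiP, the main HSP70 chaperone of the ER, which also holds the stress sensors inactive. In the treated libraries labelled Hep3B it was at 284 FPKM after NaB, 611 FPKM after Cur and Pip and 1512 FPKM after the combination, against 223 FPKM in the control. In HepG2 it was at 245, 608 and 603 FPKM after the same treatments, against 697 FPKM in the control. The HepG2 control was thus the highest of its 4 libraries, and the control labelled Hep3B the lowest of its own. The log2 fold changes of FPKM + 1 against the control were 0.35, 1.45 and 2.76 under the Hep3B label and -1.51, -0.20 and -0.21 in HepG2, with standard errors of 0.037 to 0.045 from the Cufflinks intervals. These intervals hold the error of estimating 1 library only, and a bulk level cannot tell more RNA per cell from more cells that express a gene. In the combination library labelled Hep3B the level was the sum of 3 transcripts, and the largest of them alone gave a log2 fold change of 1.57. Depth over the coding exons, an alternative chosen after the data were seen, gave 2.73.

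HSP90B1 (chromosome 12, 103930107 to 103953931) encodes the HSP90 chaperone of the ER. It was at 258, 440 and 577 FPKM after NaB, after Cur with Pip and after the combination under the Hep3B label, against 277 FPKM in the control. In HepG2 it was at 158, 383 and 456 FPKM, against 400 FPKM in the control. The order of the libraries under the Hep3B label was that of HSPA5 except for NaB and the control, whose intervals overlapped. In HepG2 the log2 fold change was -1.34 after NaB, close to that of HSPA5, and -0.06 and 0.19 after the other treatments.

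DNAJB9 (chromosome 7, 108569867 to 108574850) encodes a J-domain cochaperone of BiP that takes part in degradation and in holding IRE1 inactive. As summed FPKM it was the only one of the 10 genes more than 2 times its control in both lines, after Cur with Pip and after the combination. As depth over the exons of the canonical transcript this did not hold: the log2 fold change of DNAJB9 after the combination in HepG2 was 0.75, and EDEM1 was over 2 times its control in all 4 comparisons. In HepG2 it was at 8.52, 35.7 and 35.2 FPKM after NaB, after Cur with Pip and after the combination, against 16.5 FPKM in the control. The libraries labelled Hep3B had it at 9.15, 20.9 and 38.9 FPKM, against 9.34 FPKM in the control. The log2 fold changes after Cur and Pip were 1.07 in HepG2 and 1.08 under the Hep3B label, and those after the combination were 1.05 and 1.95. NaB gave -0.88 in HepG2 and -0.03 under the Hep3B label, where the intervals of the 2 libraries overlapped.

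SDF2L1 (chromosome 22, 21642302 to 21644299) encodes a small ER protein that works with J-domain cochaperones and BiP. It was at 28.2, 88.3 and 97.4 FPKM after NaB, after Cur with Pip and after the combination under the Hep3B label, against 58.1 FPKM in the control. In HepG2 it was at 21.7, 43.2 and 15.4 FPKM, against 65.6 FPKM in the control. After NaB it was lower in both lines, with log2 fold changes of -1.55 in HepG2 and -1.02 under the Hep3B label. After the combination it had the lowest log2 fold change of the listed members in HepG2 (-2.03) and one of 0.73 under the Hep3B label.

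**Figure D1:**
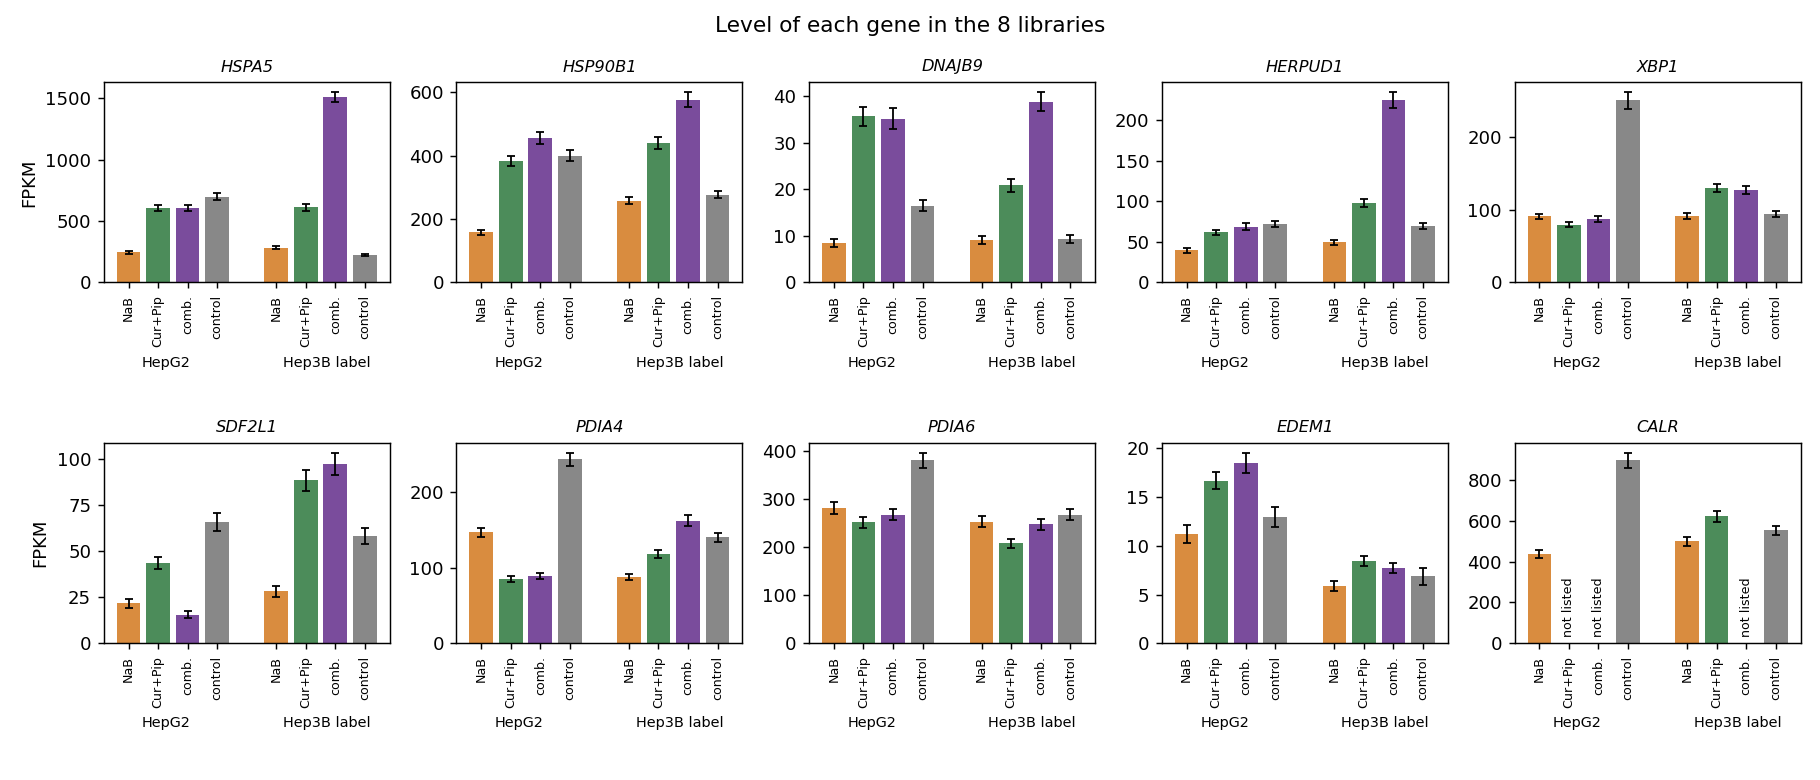
FPKM of each of the 10 genes (y axes, linear from 0, different for each gene) in the 8 libraries, with NaB, Cur+Pip and the combination (comb.) left of the control in each line. Bars are single libraries and black lines the Cufflinks 95% intervals combined over transcripts, which hold no spread between cultures; HSPA5 reaches 1512 FPKM in the combination library labelled Hep3B, and CALR is not listed in 3 libraries.

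PDIA4 (chromosome 7, 149003062 to 149028662) and PDIA6 (chromosome 2, 10783391 to 10837977) encode disulfide isomerases. In HepG2 PDIA4 was at 147, 85.1 and 89.3 FPKM after NaB, after Cur with Pip and after the combination, against 244 FPKM in the control. In the treated libraries labelled Hep3B it was at 88.0, 118 and 162 FPKM, against 140 FPKM in the control. All 3 treated HepG2 libraries were below their control, with log2 fold changes of -0.73, -1.51 and -1.44. Under the Hep3B label the difference after Cur and Pip was -0.24 as summed FPKM and 0.15 as depth over the coding exons, so its direction depended on how the transcripts were counted. PDIA6 had the narrowest range of log2 fold changes among the members listed in all 8 libraries. It was at 281, 251 and 267 FPKM in the treated HepG2 libraries, against 379 FPKM in the control, and at 252, 207 and 247 FPKM in the treated libraries labelled Hep3B, against 267 FPKM in the control. Its log2 fold changes lay between -0.59 and -0.08 over all 6 comparisons.

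CALR (chromosome 19, 12938578 to 12944489) encodes calreticulin, a calcium-binding chaperone of glycoproteins, and had the highest level of the 10 genes in both controls. It was at 436 FPKM after NaB in HepG2, against 896 FPKM in the control, and at 500 FPKM after NaB and 622 FPKM after Cur and Pip under the Hep3B label, against 553 FPKM in the control. In the other 3 libraries no transcript was assigned to CALR. There its exons lay in longer transcripts that were not assigned to it. CALR is therefore not a gene without reads in these libraries, and no fold change of its summed FPKM is given for them. As depth over the coding exons of CALR, with these transcripts counted at their own FPKM, the log2 fold changes were -2.33 and -1.69 in HepG2 and -0.34 under the Hep3B label. That FPKM is 1 value for a whole transcript, which also holds sequence outside CALR. Its part in these differences was not tested, so they are not a measured fall of CALR.

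HERPUD1 (chromosome 16, 56932142 to 56944864) encodes an ER membrane protein that organises the ubiquitin ligase complex of ER-associated degradation, and EDEM1 (chromosome 3, 5187646 to 5219958) encodes a lectin that brings misfolded glycoproteins to this pathway. HERPUD1 was at 49.4, 97.6 and 225 FPKM after NaB, after Cur with Pip and after the combination under the Hep3B label, against 69.9 FPKM in the control. In HepG2 it was at 39.7, 62.0 and 68.7 FPKM, against 71.7 FPKM in the control. The controls of the lines were thus nearly equal, and the combination library labelled Hep3B stood 3.22 times above its control (log2 fold change 1.67), while the combination library of HepG2 overlapped its control. EDEM1 was the lowest listed gene of the 10 in 6 of the 8 libraries, at 11.2, 16.7 and 18.5 FPKM in the treated HepG2 libraries, against 13.0 FPKM in the control, and at 5.83, 8.46 and 7.74 FPKM in those labelled Hep3B, against 6.88 FPKM in the control. Its assembled transcripts covered different lengths of the gene: over the exons of its canonical transcript the log2 fold change after Cur and Pip was 1.70 in HepG2 and 1.58 under the Hep3B label, while it was 0.34 and 0.26 as summed FPKM. After the combination it was 1.52 in HepG2 and 1.13 under the Hep3B label over these exons, and 0.48 and 0.15 as summed FPKM.

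XBP1 (chromosome 22, 28794555 to 28800597) was at 90.7, 79.2 and 87.1 FPKM after NaB, after Cur with Pip and after the combination in HepG2, against 250 FPKM in the control. The libraries labelled Hep3B had it at 91.1, 130 and 127 FPKM, against 93.9 FPKM in the control. The HepG2 control was the highest of the 8 libraries, and the log2 fold changes in HepG2 were -1.45, -1.65 and -1.51. Those under the Hep3B label were -0.04, 0.47 and 0.43. As depth over the exons of the canonical transcript the HepG2 control was at 159 FPKM, its fold changes were -0.81, -1.02 and -1.02, and none was over 1.5.

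The 26-nt segment divided the XBP1 transcripts of 7 of the 8 libraries into a spliced and an unspliced form, a feature chosen after the data were seen. In HepG2 the spliced form made up 12.1% of XBP1 FPKM after NaB (10.6 to 13.7% from the Cufflinks intervals), 61.2% after Cur and Pip (57.7 to 64.5%) and 65.9% after the combination (62.6 to 69.1%). In the HepG2 control no spliced transcript was assembled among 250 FPKM of XBP1. The files list no isoform below a set share of the main isoform of its locus, and at the lowest share found in that control a spliced form of up to 9.09% of XBP1 would not appear. The share of 12.1% after NaB lay just above this limit. Under the Hep3B label the spliced form made up 47.5% after NaB (44.1 to 50.9%), 46.3% after Cur and Pip (43.4 to 49.2%) and 80.6% after the combination (78.3 to 82.8%), against 14.5% in the control (12.4 to 16.7%). All 3 treated libraries of this label thus lay above their control beyond the estimation error, those of NaB and of Cur and Pip overlapped each other, and the combination lay above both. Between the lines, NaB libraries differed most, at 47.5% under the Hep3B label and 12.1% in HepG2.

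In FPKM, the spliced form was at 11.0, 48.4 and 57.4 after NaB, after Cur with Pip and after the combination in HepG2, and at 43.3, 60.2 and 103 under the Hep3B label, against 13.6 in its control. The unspliced form was at 79.7, 30.8 and 29.7 FPKM in the treated HepG2 libraries, against 250 FPKM in the control. The lower XBP1 total in HepG2 after Cur with Pip and after the combination was therefore a lower level of the unspliced form beside a higher level of the spliced form. Under the Hep3B label the unspliced form was at 47.8, 69.9 and 24.7 FPKM, against 80.3 FPKM in the control. The coverage that Cufflinks gave for either form was 118 reads per base or more wherever it was assembled. It is an estimate for whole transcripts, and the forms share sequence on both sides of the segment that IRE1 removes. Reads over that segment, by which the forms differ, were not counted, so this coverage does not show how many reads back the spliced share.

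**Figure D2:**
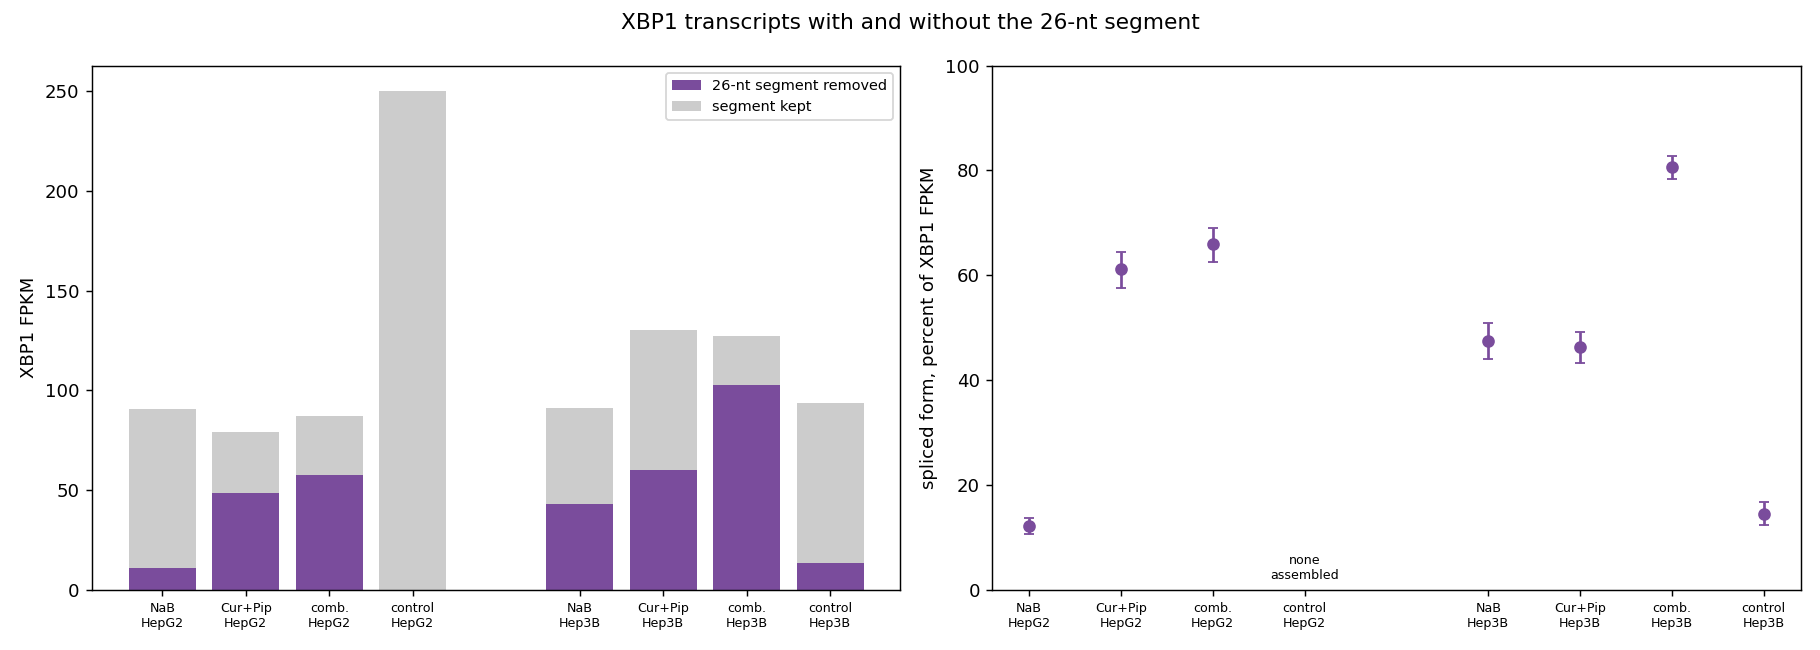
Left, XBP1 FPKM of transcripts without (purple) and with (grey) the 26-nt segment, stacked, in the 8 libraries; right, the spliced form as percent of XBP1 FPKM, with bounds from the Cufflinks 95% intervals, treated libraries left of the control. The share is 61.2 and 65.9% after Cur+Pip and the combination (comb.) in HepG2, where none was assembled in the control, and 80.6% after the combination under the Hep3B label, against 14.5% in its control.

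A gene was past the threshold when its absolute log2 fold change was over 1.5, with a gene that is not listed counted as 0. The study's methods pair this fold with a limit on p, which was not applied here because 1 library per condition gives no p-value. By this count 2, 3 and 3 of the 10 members were past it in HepG2 after NaB, after Cur with Pip and after the combination, all lower, against 9.75, 19.2 and 19.5% of all 13431 genes tested. Under the Hep3B label 0, 0 and 4 of 10 were past it, against 12.0, 10.4 and 15.0% of 13347 genes. Those of 3, 3 and 4 include CALR, whose exons lie in transcripts not assigned to it in these libraries, so the members and all genes are next compared over genes listed in both libraries. After the combination under the Hep3B label, 3 of the 9 members listed in both libraries were past it, all higher: HSPA5 (2.76), DNAJB9 (1.95) and HERPUD1 (1.67), the last of which lost the call over the exons of its canonical transcript (1.33). Of all 11062 genes listed in both libraries 2.43% were past it and higher, and 6.95% in either direction. The intervals lay above those of the control for 7 of the 9 and below for none, and for 31.8% and 42.7% of all genes. The median log2 fold change was 0.73 for the 9 members and -0.09 for all genes. After Cur and Pip none of the 10 was past the threshold, against 3.24% of all genes, with HSPA5 (1.45) closest to it. The intervals lay above the control for 8 of the 10 (29.1% of all genes) and below for 2 (33.4%), and the medians were 0.47 and -0.02. After NaB none was past it, against 5.80% of all genes; HSPA5 alone lay above the control (27.1% of all genes), 4 lay below (45.3%), and the medians were -0.12 and -0.16. Median-of-ratios scaling moved this comparison up as a whole. Of the 4 below, HERPUD1, SDF2L1 and PDIA4 stayed negative with it (-0.30, -0.83 and -0.48), and CALR became 0.04, so no direction is given for CALR or for the members with overlapping intervals.

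In HepG2 after NaB all 10 members were below the control, between -1.55 and -0.20, and the intervals did not overlap for 9 of them (31.5% of all genes), the exception being EDEM1. The median was -0.96 for the members and 0.01 for all 11145 genes listed in both libraries. SDF2L1 (-1.55) and HSPA5 (-1.51) were past the threshold, 2 of 10 against 3.39% of all genes, with XBP1 (-1.45) just inside it. Both lost the call with a pseudocount of 5 (-1.40 and -1.49), and HSPA5 over canonical exons (-1.36). After Cur and Pip XBP1 (-1.65) and PDIA4 (-1.51) were past it, 2 of the 9 members listed in both libraries, against 12.4% of all genes. The intervals lay below the control for 6 of the 9 (40.5% of all genes) and above for DNAJB9 and EDEM1 (37.0%). After the combination SDF2L1 (-2.03) and XBP1 (-1.51) were past it, again 2 of 9, against 12.0% of all genes; 5 lay below the control (39.9%) and 3 above (37.3%). The median was -0.21 for the members after either treatment and -0.02 for all genes. PDIA4 after Cur and Pip and XBP1 after the combination lost the call under median-of-ratios scaling (-1.47 and -1.49), and XBP1 lost it after both treatments over canonical exons, where EDEM1 gained it. The hepatocyte markers moved as well in HepG2. Over the 12 listed in both libraries the median was -0.34 after NaB, -1.52 after Cur with Pip and -1.64 after the combination. Past the threshold and lower were 1, 6 and 7 of them, against 1.79, 7.24 and 7.29% of all genes. ALB and AFP were not listed in the HepG2 control and listed in all 3 treated libraries, so these medians and counts leave them out. Whether that control lacked reads of ALB and AFP was not tested. The part of these markers in the values of the members was not tested.

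**Figure D3:**
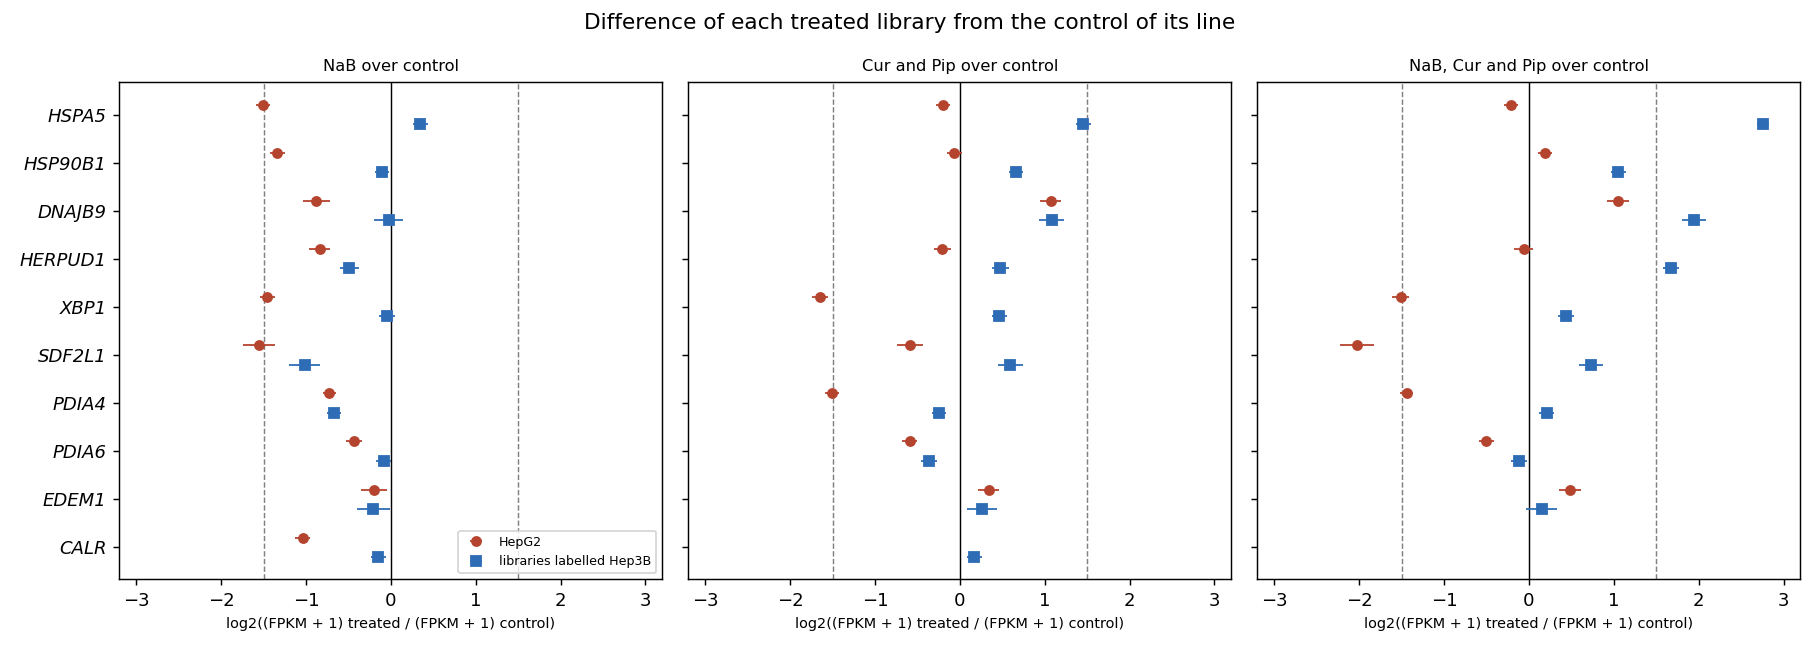
Log2 fold change of FPKM + 1 (x axes) of each gene for NaB, Cur and Pip, and the combination over the control, in HepG2 (circles) and in the libraries labelled Hep3B (squares). Horizontal lines are 95% intervals built from those of Cufflinks, dashed lines the threshold of 1.5; after the combination HSPA5 is at 2.76 under the Hep3B label and -0.21 in HepG2, and CALR has no point where it is not listed.

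The combination was also set beside the single treatments, which share its agents and doses within a line. Under the Hep3B label HSPA5 and HERPUD1 were higher after the combination than after Cur and Pip, with log2 differences of 1.31 and 1.19, and DNAJB9 with 0.87. The median over 9 members was 0.39 and that of all genes -0.09. In HepG2 the median was 0.09 for the members and 0.02 for all genes, and HSPA5, DNAJB9 and XBP1 differed by -0.01, -0.02 and 0.14. SDF2L1 was the exception there, with a log2 difference of -1.44. Against NaB alone the median was 1.16 under the Hep3B label, where that of all genes was 0.06, with 8 of 9 members and 54.6% of all genes higher. The median in HepG2 was 0.68, where that of all genes was -0.04, with 5 of 9 members and 47.8% of all genes higher. These comparisons reuse the same combination library and are not independent of those against the controls.

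Without treatment, all 10 genes were lower as summed FPKM under the Hep3B label than in HepG2, with log2 differences between -1.64 (HSPA5) and -0.04 (HERPUD1). The median over all 10334 genes listed in both controls was 0.16, and 56.9% of them were higher under the Hep3B label. For HERPUD1 and SDF2L1 the intervals of the controls overlapped. Over the exons of its canonical transcript HERPUD1 was higher under the Hep3B label, at 49.1 FPKM against 44.5 FPKM in HepG2. HSPA5 was past the threshold as summed FPKM, as were 7.14% of all genes in this direction. XBP1 followed with a difference of -1.40. Over canonical exons HSPA5 was just inside the threshold, at 140 FPKM under the Hep3B label and 394 FPKM in HepG2. XBP1 was at 82.0 and 159 FPKM by this measure, and CALR was nearly equal at 553 and 561 FPKM. PDIA4 and PDIA6 were further apart than as summed FPKM, at 89.9 and 214 FPKM and at 192 and 371 FPKM. The fold changes above start from these different levels: HSPA5 after Cur and Pip was at 611 FPKM under the Hep3B label and 608 FPKM in HepG2, with fold changes in opposite directions.

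To ask for changes that the lines share, limma was fitted over 15447 genes with terms for treatment and line, which leaves 3 residual degrees of freedom. None of the 10 members passed an adjusted p of 0.05 after any treatment, and 0, 0.0259 and 0.0712% of all genes did after NaB, after Cur with Pip and after the combination. At an unadjusted p under 0.05 there were 0, 1 and 2 of the 10 members, against 4.70, 5.93 and 10.7% of all genes. In a test on simulated data the fit had too little power for changes of the size of the fold threshold, so these counts do not show that a shared change is absent. DNAJB9 was the member after Cur and Pip, with a log2 fold change of 1.07 ± 0.39 (SE, limma adjusted p = 0.686), higher in both lines. After the combination it had 1.499 ± 0.39 (limma adjusted p = 0.416), again higher in both lines, beside CALR, whose estimate rests on the libraries where it is not listed. HSPA5 had 1.27 ± 0.71 after the combination (limma adjusted p = 0.534), a mean of 2 lines that went apart. Where the lines respond differently, this enters the residual error of the fit. NaB doses were not equal in the lines, and the p-values measure the spread between single libraries.

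HSPA5 was then compared with all 6926 protein-coding genes listed in all 8 libraries at a mean FPKM of 5 or more, by Pearson's r of log2(FPKM + 1) over the 8 libraries, centred within each line. The most alike were TXNDC17 (0.98), TNRC6A (0.97), POLR3A (0.96), HYOU1 (0.94) and HERPUD1 (0.94). HYOU1, an ER chaperone and exchange factor of BiP, was at 103 FPKM after the combination under the Hep3B label, against 46.6 FPKM in the control, and at 66.2 FPKM in HepG2, against 91.7 FPKM. Among the members, HSP90B1 was at rank 14 (0.90) and DNAJB9 at rank 25 (0.88), whereas PDIA4 (0.21) and PDIA6 (-0.07) were far down. The points share libraries and depth, 1 library carries the highest HSPA5 level, and the values are a description with no test.

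The other genes of the response were taken from 7 lists. In HepG2 after NaB, 1 of 13 other ER chaperones and cochaperones was above the control, against 51.1% of all genes, and the median was -0.69, with DNAJB11 at 48.6 FPKM, against 114 FPKM in the control. After Cur with Pip and after the combination the medians of this list were -0.39 and -0.56 in HepG2 and 0.35 and 0.40 under the Hep3B label, where 11 and 10 of 14 genes were above the control, against 48.4 and 44.4% of all genes. None of its 12 to 14 genes listed in both libraries passed the threshold in any comparison, and 3.24 to 12.4% of all genes did. In the combination library labelled Hep3B, DNAJB11, a J-domain cochaperone, was at 174 FPKM, against 86.6 FPKM, and SIL1, an exchange factor of BiP, at 23.3 FPKM, against 53.0 FPKM in the control. The list thus held genes on both sides there.

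Other disulfide isomerases and oxidases had medians of -0.31, -0.61 and -0.28 after NaB, after Cur with Pip and after the combination in HepG2, and of -0.11, -0.06 and -0.08 under the Hep3B label. PDIA3, which works with calreticulin, was at 432 FPKM after the combination under the Hep3B label, against 223 FPKM in the control, and P4HB, the founding isomerase, at 243 FPKM, against 373 FPKM. In HepG2 QSOX1, a sulfhydryl oxidase, was at 36.1 FPKM after the combination, against 8.57 FPKM in the control. The translocon and ER export list had medians of -0.52, -0.44 and -0.52 in HepG2 and -0.41, 0.01 and -0.04 under the Hep3B label. The ER-associated degradation list had none of its 19 or 20 genes listed in both libraries past the threshold in any of the 6 comparisons, beside the same 3.24 to 12.4% of all genes. In it SELENOS was above 1.3 on the log2 scale after the combination under the Hep3B label (1.34), at 108 FPKM against 42.2 FPKM.

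Of the sensors, ERN1, which encodes IRE1, was at 4.16, 24.6 and 22.2 FPKM after NaB, after Cur with Pip and after the combination in HepG2, against 4.66 FPKM in the control. In the treated libraries labelled Hep3B it was at 5.80, 7.22 and 8.22 FPKM, against 3.01 FPKM in the control, and the log2 fold change after the combination was 1.20 as summed FPKM and 0.60 over the coding exons. In HepG2 the high ERN1 libraries were those with the XBP1 spliced share over 60%. ATF6 was at 6.96, 26.1 and 25.5 FPKM in HepG2, against 7.29 FPKM in the control. Under the Hep3B label it was at 12.2, 32.7 and 25.5 FPKM, against 21.7 FPKM in the control. MBTPS1, a Golgi protease that cleaves ATF6, was lower in all treated libraries. In HepG2 it was at 18.0, 28.3 and 11.7 FPKM after NaB, after Cur with Pip and after the combination, against 39.7 FPKM in the control. The libraries labelled Hep3B had it at 10.5, 43.2 and 11.2 FPKM, against 55.3 FPKM in the control.

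The ATF4 and CHOP branch had the highest median of the lists after Cur and Pip in HepG2 (1.37). There 5 of 10 genes were past the threshold and higher, against 5.17% of all genes. After the combination in HepG2 the median was 0.59, with 1 of 8 genes past the threshold and higher and 2 lower, against 4.68 and 7.29% of all genes. A further 3 genes, DDIT3 and PPP1R15A among them, were not listed in both libraries and are outside these counts. Over coding exons the log2 fold changes of DDIT3 and PPP1R15A were 5.46 and 1.88. DDIT3 was at 0 in the control by this measure too, so the size of its value is set by the 1 added to each FPKM. The value of PPP1R15A rests on transcripts not assigned to it in the combination library, and the part of this was not tested. Under the Hep3B label its medians were 0.76 and 0.97 after these treatments. After NaB the median was -0.76 in HepG2 and -0.82 under the Hep3B label. Its lowest genes after the combination were PSAT1 (-2.29) and ASNS (-1.80), enzymes of serine and asparagine synthesis, in HepG2, and DDIT4 (-2.04), an inhibitor of mTORC1 signalling, under the Hep3B label. DDIT3, which encodes CHOP, was at 200 FPKM after the combination under the Hep3B label, against 8.46 FPKM in the control, and was not listed after NaB or after Cur and Pip. In HepG2 it was at 75.9 and 43.1 FPKM after Cur with Pip and after the combination and not listed after NaB or in the control. ATF4 was at 447, 269 and 384 FPKM in the treated HepG2 libraries, against 209 FPKM in the control. The libraries labelled Hep3B had it at 237 and 429 FPKM after NaB and after Cur with Pip, against 258 FPKM in the control. After the combination ATF4 was not listed there, but it was not without reads. Over its coding exons it was at 196 FPKM in that library, against 258 FPKM in the control (log2 fold change -0.39). The 196 FPKM come from transcripts not assigned to ATF4, and the part of this in the difference was not tested. The cytosolic heat shock proteins had medians of 0.29 in HepG2 and 0.62 under the Hep3B label after the combination. BAG3, a cochaperone of cytosolic HSP70, was at 87.6 FPKM after the combination in HepG2, against 13.7 FPKM, and at 95.1 FPKM under the Hep3B label, against 23.7 FPKM in the control.

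**Figure D4:**
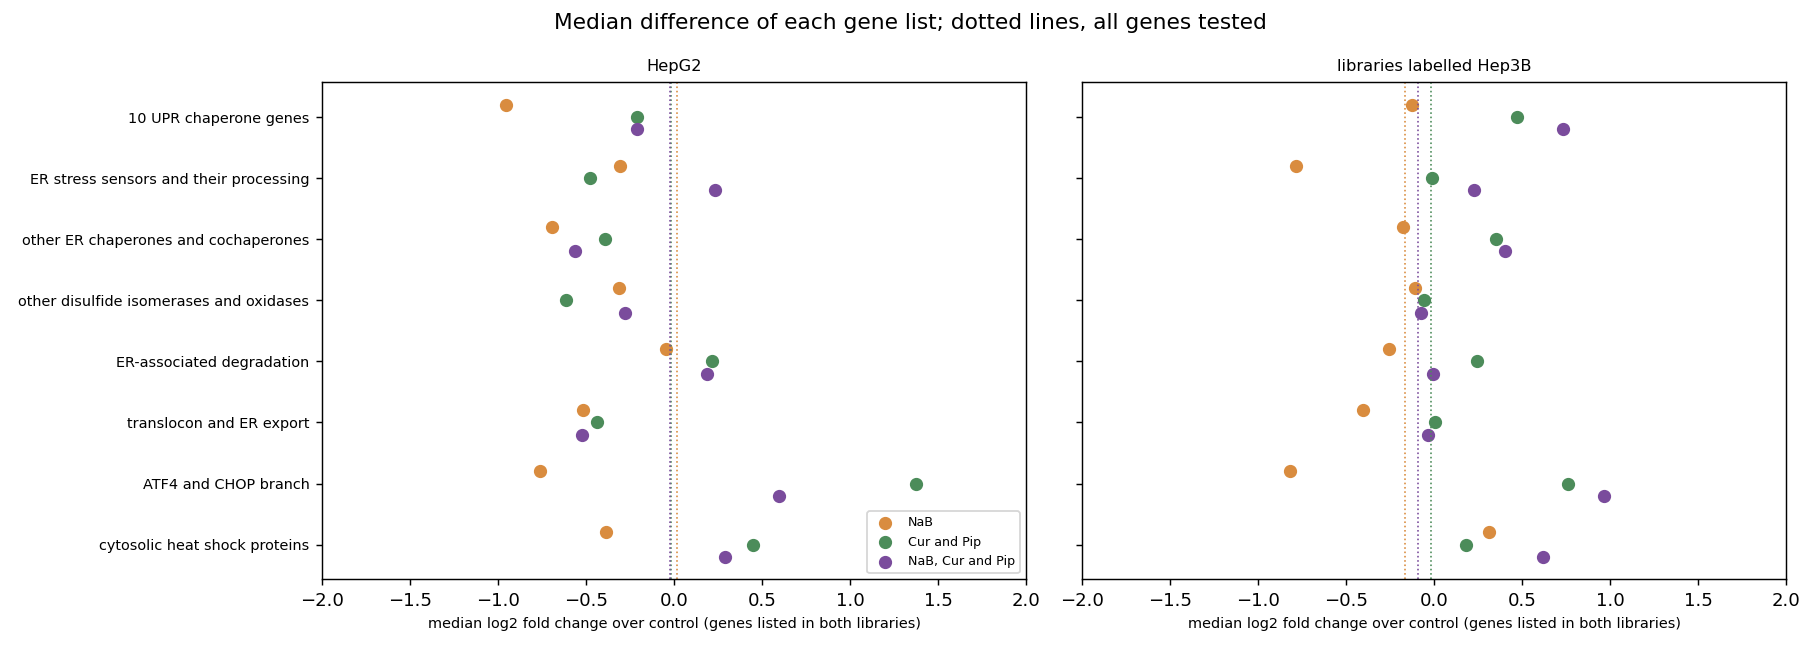
Median log2 fold change over the control (x axes) of the 10 genes and of 7 further lists, for NaB, Cur and Pip, and the combination, over genes listed in both libraries; dotted lines are the medians of all genes tested. The 10 genes are at -0.96 after NaB in HepG2 and at 0.73 after the combination under the Hep3B label, and the ATF4 and CHOP branch is at 1.37 after Cur and Pip in HepG2.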

How the data were processed

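The authors mapped reads of directional, paired 150-base libraries to GRCh38 with STAR and assembled transcripts library by library with Cufflinks. FastQC and Cuffdiff appear in the submitters' notes too, with versions not given in the sources used here. RNA was isolated in triplicate according to the methods, which do not say whether it was pooled. The deposited values, other than scores or counts, are FPKM per assembled transcript with a 95% interval and coverage. Using bedtools 2.31.1, a transcript went to the gene of GENCODE release 44 holding at least 50% of its exonic bases on the same strand, and FPKM were summed per gene. Transcripts across neighbouring genes or partly assembled ones can move these sums. Read depth over listed members was 62.5 to 19068, and gene intervals were 2.59 to 12.6% of the level on either side.

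For fold changes, 1 was added to each FPKM and the log2 ratio of the treated library to its control was taken, over genes at 1 FPKM or more in at least 1 of the 4 libraries of a line; they understate changes of low genes. limma 3.58.1 in R 4.3.3 was fitted to log2(FPKM + 1) with Benjamini-Hochberg adjustment. Python 3.11.15 was used with numpy 2.4.6 and pandas 2.3.3, and the steps were tested on simulated data. The 10 members and the lists were chosen with earlier results of these data known. Named besides them were up to 2 highest and 2 lowest genes of each list after the combination in each line, the 5 genes most like HSPA5, and DDIT3, ATF4 and HNF4A, and not all genes so selected are printed. The alternatives were pseudocounts of 0.1 and 5, other FPKM filters, median-of-ratios scaling, the largest transcript, depth over canonical exons, transcripts spanning another gene left out, a fold threshold of 1, a trended limma variance and each library left out. Depth over coding exons, genes listed in all compared libraries and the XBP1 forms were chosen after seeing the data.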

Additional observations from a re-analysis of the deposited data

Results flagged for a closer look

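The following sets of differences went in opposite directions in the lines, with Cufflinks intervals apart from the control's in both; the difference between the lines was not tested in any of them, since each line has 1 library per condition. HSPA5 had a log2 fold change of 0.35 under the Hep3B label and -1.51 in HepG2 after NaB, of 1.45 and -0.20 after Cur and Pip, and of 2.76 and -0.21 after the combination. XBP1 had 0.47 under the Hep3B label and -1.65 in HepG2 after Cur and Pip, and 0.43 and -1.51 after the combination. SDF2L1 had 0.59 under the Hep3B label and -0.59 in HepG2 after Cur and Pip, and 0.73 and -2.03 after the combination. HERPUD1 had 0.48 under the Hep3B label and -0.21 in HepG2 after Cur and Pip. PDIA4 had 0.21 under the Hep3B label and -1.44 in HepG2 after the combination. HERPUD1 in HepG2 and XBP1 under the Hep3B label changed direction after Cur and Pip with the largest transcript alone. Over canonical exons HERPUD1 in HepG2 after Cur and Pip changed direction too (0.21). After the combination HSPA5 in HepG2 and XBP1 under the Hep3B label kept their direction over these exons, but only at -0.06 and 0.05.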

How the results depend on the processing

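Against the main counts of 2, 3, 3, 0, 0 and 4 members past the threshold (NaB, Cur with Pip, then the combination, in HepG2 before the Hep3B label), a pseudocount of 5 left 0 after NaB in HepG2. Depth over canonical exons gave 1 after NaB in HepG2, and under the Hep3B label 1 after Cur with Pip and 2 after the combination. A fold threshold of 1 gave 5 after NaB and 5 after the combination in HepG2, and 1 after NaB and 2 after Cur and Pip under the Hep3B label. The causes were not tested. Other settings kept each count within 1.5 times. Of the 57 fold changes of members listed in both libraries, 57 kept their sign with either pseudocount, 52 with median-of-ratios scaling, 52 with the largest transcript, 52 over canonical exons and 56 over coding exons. The limma count of members was 0 in each alternative run. With any library left out no gene at all was called for any treatment, so the range of 0 to 0 says nothing about stability. With 1 library per condition, the intervals cover estimation error only, and weak isoforms of a locus are not seen.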
